A study of Mus musculus with 29 samples.

Results

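Iron reaches cells through a small set of transporters, reductases and storage proteins, and the host also withholds it from microbes. Transcripts of 10 genes of this system were followed in mouse colon across 6 colitis models and 3 control groups: Lcn2, Tfrc, Slc11a1, Slc11a2, Slc40a1, Fth1, Ftl1, Hmox1, Steap4 and Cp. They were chosen by name, as the rows of the deposited count table whose Ensembl identifiers carry these symbols, and all 10 were found among its 54532 genes. All 10 also passed the filter on low counts, a mean count of at least 3 over the 29 libraries, which left 18616 genes for testing.

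Bulk RNA-seq of colon segments, with poly(A) selection, had been made from 29 mice. Balb/C mice without treatment (n = 3) were the controls for 3 models in Balb/C mice. These were 3% DSS in the drinking water for 5 days with culling at day 10 (n = 3), rectal DNBS at 3 mg in 200 µl of 50% ethanol (n = 3), and an IL10 blocking antibody (n = 4), for which the treatment notes give 750 µg of anti-IL-10R and culling after 4 weeks. Untreated Balb/C Rag2-/- mice (n = 3) were the controls for untreated TRUC mice (n = 4), which are Balb/C Tbx21-/- x Rag2-/- and develop colitis spontaneously, so that by their labels the Rag2 deletion is shared by this pair. Untreated C57BL/6 Rag1-/- mice (n = 3) were the controls for 2 models labelled with the same genotype. These were naive CD4 T-cell transfer, abbreviated TCT (n = 3), with 500000 cells and culling after 6 to 8 weeks, and 50 µg of agonistic anti-CD40 antibody with culling after 7 days (n = 3). Models were set against the controls just named to ask how iron genes differ in colitis of different origin.

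The study's text differs from the labels on strain for the DSS mice, on the time of culling and on the IL-10 model, which it describes as a knockout, and the T-cell recipients are called Rag2-/- in the treatment notes. The labels were used throughout. The ages of the mice are not given in them. TRUC mice 4 and 5 have count columns with headers of another form than TRUC mice 2 and 3, and the meaning of these headers is not stated. DSS and DNBS mice have no group that received water or ethanol alone beside the untreated mice. Mice given IL10 blocking or anti-CD40 antibody have no group that received a control antibody. Libraries are numbered without a statement that each is a separate animal, so that p values measure the spread between these libraries.

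Iron that microbes need is scavenged with siderophores, small chelators that lipocalin-2 (Lcn2) binds and so withholds. Transferrin receptor 1 (Tfrc) takes up transferrin-bound iron, Slc11a2 (DMT1) carries ferrous iron across membranes after reductases such as Steap4 have acted on ferric iron, and Slc11a1 (NRAMP1) removes metal from the phagosomes of macrophages and neutrophils. Ferritin heavy and light chains (Fth1, Ftl1) store iron, ferroportin (Slc40a1) exports it, ceruloplasmin (Cp) oxidizes it for loading onto transferrin, and heme oxygenase 1 (Hmox1) frees it from heme. In cells with little iron, iron regulatory proteins bind hairpins called iron-responsive elements, which stabilize Tfrc mRNA from its 3′ end and block translation of ferritin and ferroportin mRNA from the 5′ end.

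These hairpins are shown because they divide the members into transcripts whose stability responds to iron and transcripts whose translation does. Transcripts were searched for a 5-base-pair stem closed by the loop CAGTGN above a bulged C. In capitals are the bulged C and the 6 loop bases, in lower case the stem and flanks, all read 5′ to 3′ from GENCODE M21 transcripts (GRCm38). The hairpin was found in an untranslated region of 4 of the 10 members, against 174 of 22527 protein-coding genes (0.772%).
Tfrc 3′ UTR, chr16:32631219-32631247, plus strand: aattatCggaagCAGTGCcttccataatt
Tfrc 3′ UTR, chr16:32631598-32631626, plus strand: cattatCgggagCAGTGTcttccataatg
Tfrc 3′ UTR, chr16:32631663-32631691, plus strand: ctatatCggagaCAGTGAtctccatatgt
Tfrc 3′ UTR, chr16:32631710-32631738, plus strand: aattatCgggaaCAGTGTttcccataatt
Slc40a1 5′ UTR, chr1:45925465-45925493, minus strand: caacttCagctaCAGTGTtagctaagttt
Fth1 5′ UTR, chr19:9982732-9982760, plus strand: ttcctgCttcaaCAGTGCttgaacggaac
Ftl1 5′ UTR, chr7:45459779-45459807, minus strand: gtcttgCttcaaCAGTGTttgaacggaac
These letters were not matched in transcripts of the other 6 members, which says nothing of hairpins of another form. Counts measure transcript amount, so regulation of translation through the 5′ hairpins of Slc40a1, Fth1 and Ftl1 cannot be read from them.

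Lcn2 and Steap4, the members with the highest fold changes, are shown with part of the sequence before their start. Both stretches run from 250 to 71 bases before the RefSeq transcript start (GRCm38.p6), 5′ to 3′ on the strand of the gene, with motif matches in capitals. The Lcn2 stretch lies within the GENCODE M21 span of the gene, chr2:32384633-32388252, which begins farther 5′ than the RefSeq start used here.
Lcn2, chr2:32387810-32387989, minus strand: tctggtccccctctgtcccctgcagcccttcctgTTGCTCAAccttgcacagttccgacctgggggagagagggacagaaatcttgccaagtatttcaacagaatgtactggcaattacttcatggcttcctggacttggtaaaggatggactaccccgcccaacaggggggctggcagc
Steap4, chr5:7960222-7960401, plus strand: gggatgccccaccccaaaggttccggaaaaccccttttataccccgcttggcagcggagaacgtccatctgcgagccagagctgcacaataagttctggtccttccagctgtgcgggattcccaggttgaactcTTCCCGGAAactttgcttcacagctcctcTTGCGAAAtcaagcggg
The full 250 bases before the start were searched on both strands for the letters TTGCNNAA (C/EBP), TTCNNNGAA (STAT), GGANNTTCC (NF-kB) and TGACNNNGC (antioxidant response element), and no overlap between motifs occurred in these 2 genes. Lcn2 held TTGCNNAA with its first base at -216, and Steap4 held TTCNNNGAA at -116 and TTGCNNAA at -87. Among 32851 mouse promoters of this length 9.56% held TTGCNNAA, 7.02% TTCNNNGAA, 3.59% GGANNTTCC and 10.16% TGACNNNGC, so such matches are common. The promoter table held 7 of the 10 members. Cp had TTGCNNAA at -70 and Fth1 had it at -129 and -58, and no letters matched in Tfrc, Slc11a1 and Ftl1. Slc11a2, Slc40a1 and Hmox1 have no entry.

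Total counts per library ran from 10725564 to 14977094 with a median of 12287039, and levels are given as CPM, counts scaled to the size of the library, after TMM scaling. A count of 0 allows up to 3 counts, 0.179 to 0.314 CPM, a limit that covers counting error only. Every member had at least 17 counts in every library. Over all genes, the libraries most unlike their own group were DSS mouse 8 and IL-10 blockade mouse 4. Values for the latter are given at Slc40a1. DSS mouse 8 stood apart most. Its summed level of 8 neutrophil markers was 2511 CPM, against 502 and 760 CPM in the other DSS mice, and log2 changes in DSS that rest on it are also given without it. The summed level of 11 colon epithelium markers was at least 7612 CPM in every library. Single markers of this list differed, with Epcam from 1038 to 2570 CPM, Aqp8 from 243 to 12843 counts and Lgr5 from 4 to 277 counts. Rag2 transcripts were found at a mean of 1.15 CPM in the libraries labelled Rag1-/- control and 5.48 CPM in those labelled anti-CD40 but at 0 in TCT, while Rag1 transcripts were found at 2.35 CPM in TCT, so the libraries labelled Rag1-/- do not look alike in the targeted genes. In the libraries labelled TRUC, Rag2 transcripts had a mean of 5.72 CPM and Tbx21 transcripts 3.10 CPM, against 1.55 and 0.231 CPM in the libraries labelled Rag2-/- control, so the deletions could not be seen in gene counts, which may include reads outside the deleted part. For this reason TCT was also compared with the Balb/C controls and the anti-CD40 mice with untreated Rag2-/- animals. By the labels both of these comparisons cross strain, C57BL/6 against Balb/C, and genotype. Differences in them cannot be told apart from differences of strain or genotype. TCT was not compared with the Rag2-/- controls, so whether its recipients lacked Rag2 is not addressed by these comparisons. TRUC was compared with no other control group. In bulk tissue, more cells of a type and more RNA per cell cannot be told apart, which applies to every result that follows.

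Among the 10 genes, 8 were called higher and 1 lower in TRUC by edgeR (quasi-likelihood test) at an adjusted p under 0.05, corrected over all 18616 genes by Benjamini-Hochberg, where 22.4% of all genes were called higher and 23.4% lower. In DSS 6 were higher and 2 lower (17.7% and 16.3% of all genes), and in DNBS 3 were higher and 0 lower (3.95% and 2.21%). With IL-10 blockade 7 were higher and 0 lower (27.2% and 26.1%). In TCT 5 were higher and 0 lower (16.1% and 14%), and with anti-CD40 5 were higher and 1 lower (10.9% and 10.7%). The median log2 fold change of the 10 genes ran from 0.56 in DNBS to 1.56 with IL-10 blockade, while the median of all genes tested lay between -0.03 and 0.02. Steap4, Hmox1 and Slc11a1 were called higher in all 6 models, Cp and Lcn2 in 5, and no gene was called lower in more than 2. The share of all genes called in as many models was not counted, so these counts have no background beside them. Calls in models that share a control group are also not independent. The ranges over the members rest on genes chosen with earlier results of these data known.

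**Figure D1:**
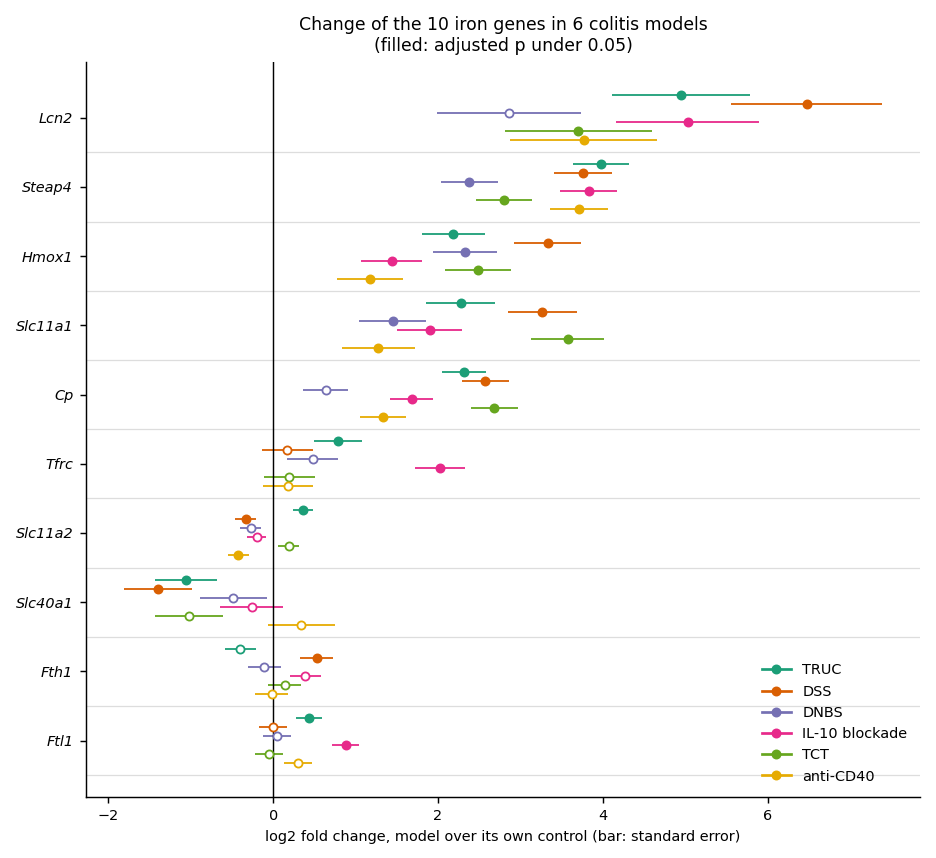
Log2 fold change of each of the 10 genes in 6 colitis models over their own control (horizontal axis), with the standard error as a bar. Filled points passed an adjusted p of 0.05 and open points did not. Lcn2, Steap4, Hmox1, Slc11a1 and Cp lie to the right of 0 in every model, and Slc40a1 lies to the left in 5 of 6.

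Lcn2 (ENSMUSG00000026822, chr2:32384633-32388252) codes for lipocalin-2, which is made by neutrophils and by stimulated colon epithelium and is used as a fecal marker of gut inflammation. It was nearly silent in control colon, with 1.75, 1.80 and 1.39 CPM in the Balb/C controls, 2.30, 2.37 and 3.55 CPM in the Rag2-/- controls and 1.54, 1.33 and 1.55 CPM in the libraries labelled Rag1-/- control. The 4 TRUC mice had 60.3, 121, 90.0 and 69.0 CPM and the 4 mice with IL-10 blockade 62.0, 57.7, 49.3 and 48.6 CPM. All lay far above the highest mouse of their control. The DSS mice had 29.9, 40.0 and 375 CPM, the last in mouse 8, and the DNBS mice 2.03, 26.5 and 8.02 CPM. TCT mice had 8.12, 15 and 34.7 CPM and anti-CD40 mice 13.1, 21.8 and 25.4 CPM. No mouse with colitis overlapped its control group, although the lowest DNBS mouse stood only just above it.

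The rise of Lcn2 was 30.8-fold in TRUC (log2 4.95 ± 0.84, SE, adjusted p = 6.91e-05), 32.7-fold with IL-10 blockade (5.03 ± 0.87, adjusted p = 5.76e-05) and 88.9-fold in DSS (6.47 ± 0.92, adjusted p = 2.07e-05). Without DSS mouse 8 the log2 change was 4.39 and the call held. TCT gave 13-fold (3.70 ± 0.89, adjusted p = 0.00276) and anti-CD40 13.6-fold (3.77 ± 0.89, adjusted p = 0.00454). Without TCT mouse 5 the TCT value was 2.97 and was still called. DNBS gave 7.26-fold (2.86 ± 0.87), and its adjusted p of 0.0507 missed the threshold. Without DNBS mouse 11 the DNBS value was 3.38 and passed (adjusted p = 0.0119), and without mouse 14 it was 1.55 and did not. DESeq2 on the 2 groups also called it (adjusted p = 0.0294), as did edgeR without the filter (adjusted p = 0.0225) and with filterByExpr (adjusted p = 0.0477).

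Steap4 (ENSMUSG00000012428, chr5:7960457-7982213) codes for a metalloreductase of iron and copper that responds to inflammatory cytokines in several tissues. Its level already differed between the control groups, with 9.83, 9.92 and 5.99 CPM in the Balb/C controls, 33.3, 29.4 and 25.6 CPM in the Rag2-/- controls and 16.6, 18.1 and 24.3 CPM in the libraries labelled Rag1-/- control. These did not overlap, and the test that the 3 control groups are equal gave an adjusted p of 0.00258, a threshold that 11.4% of all genes passed. The TRUC mice had 442, 585, 435 and 394 CPM, the highest of all groups, and the anti-CD40 mice followed with 292, 216 and 262 CPM. Levels in TCT were 199, 101 and 111 CPM, with IL-10 blockade 103, 170, 99.3 and 117 CPM and in DSS 82.6, 71.7 and 196 CPM. These 3 groups overlapped one another. The DNBS mice, with 46.1, 55.9 and 32.5 CPM, lay below them and above their own controls.

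Relative to its own control Steap4 rose 15.8-fold in TRUC (log2 3.98 ± 0.34, SE, adjusted p = 2.08e-08), 14.2-fold with IL-10 blockade (3.83 ± 0.35, adjusted p = 4.84e-08), 13.5-fold in DSS (3.76 ± 0.36, adjusted p = 2.77e-07) and 13.1-fold with anti-CD40 (3.71 ± 0.35, adjusted p = 2.64e-07). The rise was 6.98-fold in TCT (2.80 ± 0.34, adjusted p = 9.13e-07) and 5.21-fold in DNBS (2.38 ± 0.34, adjusted p = 6.16e-04). Without DSS mouse 8 the DSS value was 3.16. Leaving out any 1 mouse cost none of these calls. The Balb/C and the Rag2-/- controls are both labelled Balb/C, so that their difference lies within a strain, while strain and genotype cannot be told apart for the libraries labelled Rag1-/- control. The order of the levels and the order of the fold changes are not the same.

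Transferrin receptor 1, coded by Tfrc (ENSMUSG00000022797, chr16:32608920-32632794), is high in dividing cells and in cells short of iron. Its level was 700, 295, 712 and 532 CPM with IL-10 blockade, against 132, 144 and 137 CPM in the Balb/C controls. That is a rise of 4.06-fold (log2 2.02 ± 0.31, SE, adjusted p = 1.34e-05) with no overlap. TRUC mice had 262, 368, 447 and 519 CPM against 188, 200 and 308 CPM in the Rag2-/- controls, an increase of 1.72-fold (0.78 ± 0.29, adjusted p = 0.0312) in which the groups overlapped. The TRUC call was lost when TRUC mouse 4 or 5 or Rag2-/- control 1 or 2 was left out (log2 0.63 to 0.72). In DSS, DNBS, TCT and anti-CD40 the log2 changes lay between 0.17 and 0.48 and did not pass, with adjusted p from 0.346 to 0.726. Against the Balb/C controls TCT gave a log2 change of 0.83 (adjusted p = 0.0430).

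Slc11a2 (ENSMUSG00000023030, chr15:100387898-100425072), the ferrous iron transporter of gut epithelium and of endosomes, gave the lowest p of the members in the test of equal controls, while Steap4 differed by more on the fold scale. The Balb/C controls had 72.2, 78.3 and 71.4 CPM, the libraries labelled Rag1-/- control 48.3, 55.6 and 53.1 CPM and the Rag2-/- controls 35.9, 33.4 and 31.6 CPM. These 3 groups did not overlap, and the test of equal controls gave an adjusted p of 2.78e-06. Differences in colitis were small beside this. TRUC mice had 42.2, 44.6, 40.1 and 45.3 CPM, 1.28-fold over their controls (log2 0.36 ± 0.12, SE, adjusted p = 0.0196), a call lost in 2 of 7 fits without a mouse.

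In the opposite direction, Slc11a2 fell by 0.34 on the log2 scale in DSS (SE 0.13, adjusted p = 0.0423), to 58.2, 54.8 and 62.6 CPM. With RLE size factors the DSS call was lost (-0.31, adjusted p = 0.0512), as it was in every other alternative of the filter or the model and in each fit that left out a mouse. With anti-CD40 it fell by 0.43 (SE 0.13, adjusted p = 0.0198), to 39.3, 41.2 and 36.3 CPM. Against the Rag2-/- controls the anti-CD40 difference was 0.21 in the other direction (adjusted p = 0.239), so its sign rests on the control group chosen, and the call was also lost in 3 of 6 fits without a mouse. The test that the 6 contrasts are equal gave an adjusted p of 6.78e-04 for Slc11a2. Its contrasts start from control groups that differ in this gene, and whether that has a part in the result was not tested.

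**Figure D2:**
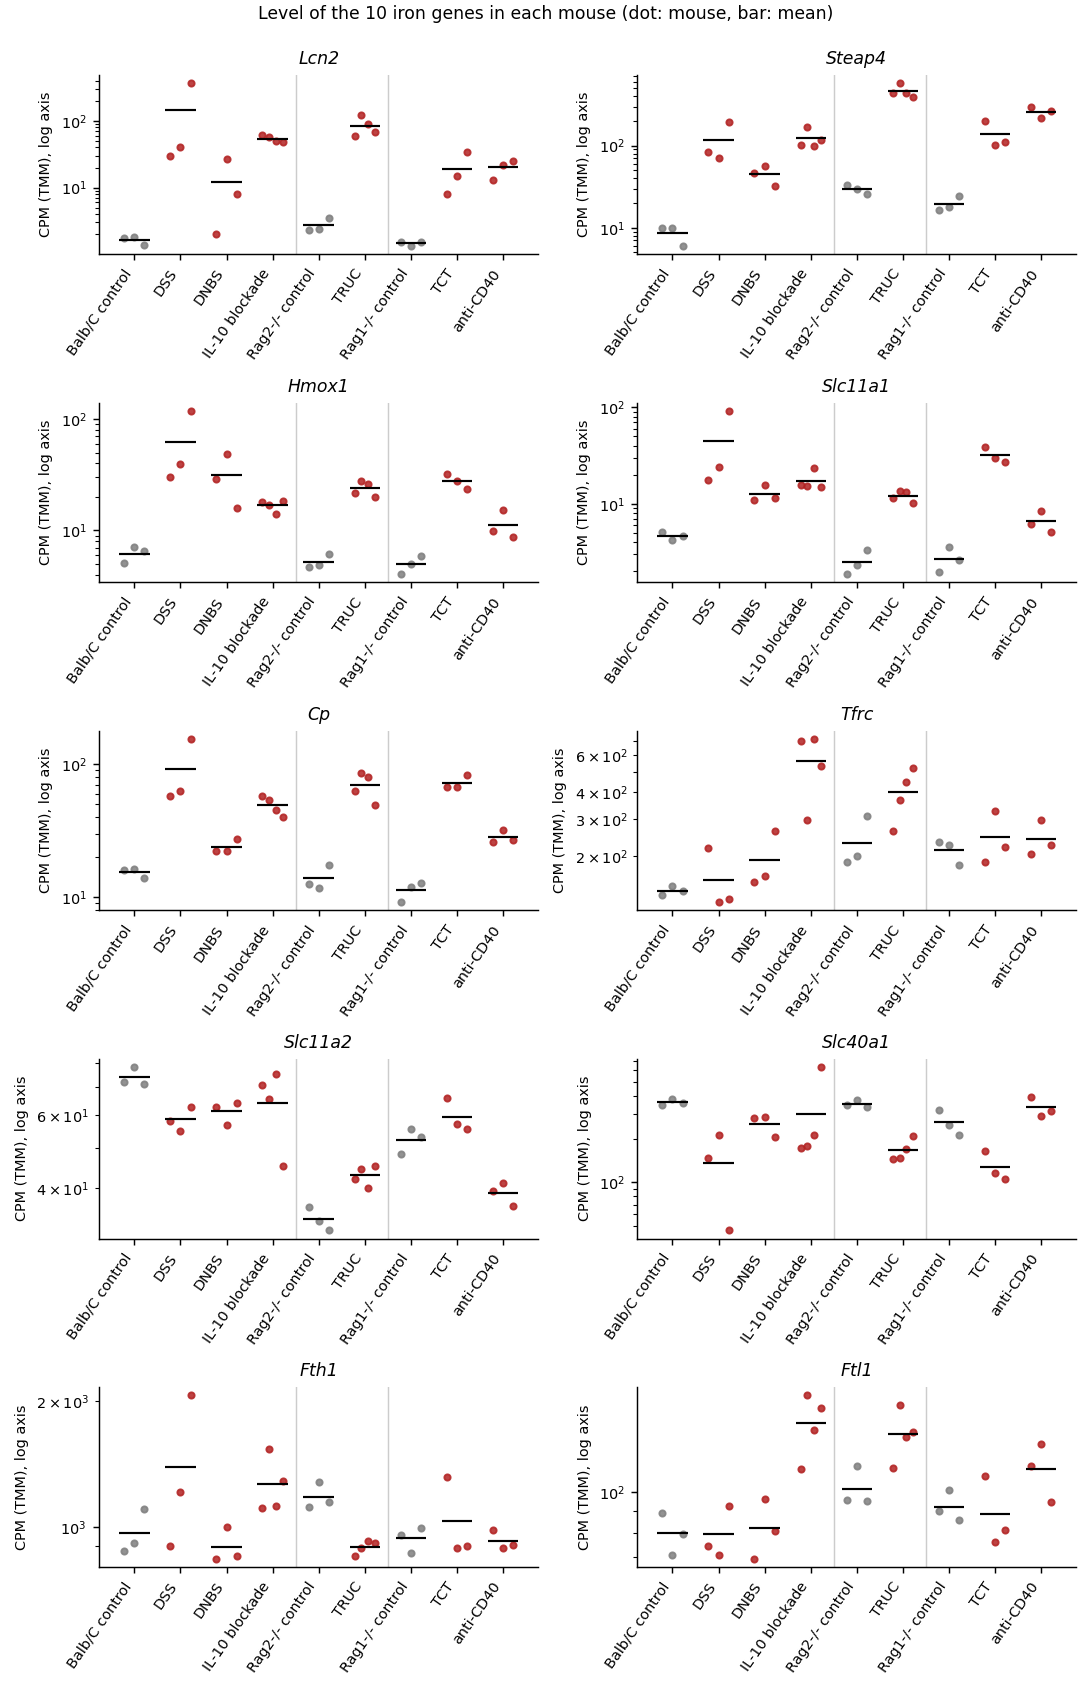
Level of each of the 10 genes in CPM after TMM scaling (vertical log axes, which differ in range) in every mouse of the 9 groups. Dots are mice, gray for controls and red for colitis, bars are group means, and vertical lines separate each control and its models. Lcn2 is near 2 CPM in every control and reaches 375 CPM in DSS mouse 8, and the 3 control groups of Slc11a2 do not overlap.

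Slc11a1 (ENSMUSG00000026177, chr1:74375195-74386062) is expressed by macrophages and neutrophils. It was low in control colon, with 5.11, 4.20 and 4.59 CPM in the Balb/C controls, 1.86, 2.30 and 3.32 CPM in the Rag2-/- controls and 1.95, 3.54 and 2.58 CPM in the libraries labelled Rag1-/- control. The TCT mice had 39.3, 30.0 and 27.3 CPM, 11.9-fold over their controls (log2 3.57 ± 0.44, SE, adjusted p = 1.29e-06). The DSS mice had 17.8, 24.0 and 92.4 CPM, 9.62-fold (3.27 ± 0.42, adjusted p = 7.89e-06), and without mouse 8 the log2 value was 2.17 and still called. These were the larger changes of this gene. In every model the counts measure Slc11a1 transcript only. Whether its protein removes metal from phagosomes in mice of these strains was not tested.

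In the other models Slc11a1 rose 4.85-fold in TRUC (11.4, 13.7, 13.4 and 10.3 CPM, adjusted p = 1.65e-04) and 3.72-fold with IL-10 blockade (15.6, 15.2, 23.3 and 14.8 CPM, adjusted p = 3.78e-04). It rose 2.73-fold in DNBS (10.9, 15.5 and 11.5 CPM, adjusted p = 0.0372) and 2.42-fold with anti-CD40 (6.20, 8.4 and 5.10 CPM, adjusted p = 0.0393). Mice with colitis and their controls did not overlap in any model. The DNBS and the anti-CD40 call were each lost in 5 of the 6 fits that left out a mouse, with log2 values of 1.28 to 1.53 and 1.06 to 1.53.

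Slc40a1 (ENSMUSG00000025993, chr1:45908068-45926523) codes for ferroportin, the only known exporter of iron from mammalian cells, found in macrophages and at the basolateral side of gut epithelium. It was the one member called lower in more than 1 model with none called higher. TRUC mice had 145, 149, 170 and 210 CPM against 346, 373 and 336 CPM in the Rag2-/- controls, so that Slc40a1 fell by 1.06 on the log2 scale (SE 0.38, adjusted p = 0.0243). DSS mice had 148, 214 and 46.5 CPM, the lowest in mouse 8, against 346, 379 and 355 CPM in the Balb/C controls, and it fell by 1.40 (SE 0.41, adjusted p = 0.0111). Without mouse 8 the DSS value was -0.99 (adjusted p = 0.0666). The TRUC call was lost without TRUC mouse 2 or 3 or Rag2-/- control 1 or 2, at log2 values of -1.0 to -1.07 and adjusted p of 0.0510 to 0.0612.

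TCT mice had 165, 116 and 106 CPM against 320, 252 and 215 CPM in the libraries labelled Rag1-/- control, a log2 difference of -1.02 ± 0.41 (SE) that missed the threshold (adjusted p = 0.0614). It passed against the Balb/C controls (-1.48, adjusted p = 0.00925), with DESeq2 (-1.02, adjusted p = 2.61e-05) and without the filter on low counts. With IL-10 blockade 3 mice had 172, 179 and 214 CPM, below every Balb/C control, and mouse 4 had 633 CPM, the highest of all 29 libraries. The difference was -0.26 (adjusted p = 0.575), and -0.94 without mouse 4 (adjusted p = 0.0135). Mouse 4 also had the highest summed epithelial markers of its group, 22905 CPM against 12566 to 15808 CPM, and the lowest summed B cell markers, 60.3 CPM against 193 to 480 CPM. Whether these had a part in its Slc40a1 level was not tested. DNBS mice had 279, 285 and 207 CPM, below their controls with a log2 difference of -0.49 (adjusted p = 0.477), and anti-CD40 mice had 392, 288 and 316 CPM, overlapping theirs.

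Cp (ENSMUSG00000003617, chr3:19957054-20009145), the ferroxidase that works with ferroportin and is best known as an acute-phase protein of the liver, moved opposite to Slc40a1 where both were called. It rose 6.41-fold in TCT (67.3, 67.3 and 82.5 CPM against 9.16, 11.9 and 12.7 CPM, adjusted p = 1.62e-07) and 5.96-fold in DSS (57.4, 63.3 and 155 CPM against 15.9, 16.3 and 13.9 CPM, adjusted p = 1.49e-06). It rose 4.98-fold in TRUC (62.5, 86.0, 80.1 and 49.4 CPM against 12.5, 11.7 and 17.6 CPM, adjusted p = 1.10e-06). The rise was 3.20-fold with IL-10 blockade (57.3, 53.8, 45.3 and 40.4 CPM, adjusted p = 2.12e-05) and 2.51-fold with anti-CD40 (26.2, 31.7 and 27 CPM, adjusted p = 0.00187). DNBS mice had 22.2, 22.4 and 27.3 CPM, above every Balb/C control, at a log2 difference of 0.64 ± 0.27 (SE, adjusted p = 0.150) that only DESeq2 called (adjusted p = 0.00818). Without DSS mouse 8 the log2 value in DSS was 1.97 and still called. All 5 calls held with each mouse left out. Cp overlaps Hps3 on the opposite strand, which had up to 446 counts, and no strand setting of the counting is given in the sources used here.

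Fth1 (ENSMUSG00000024661, chr19:9980598-9985098), the ferritin chain with ferroxidase activity, was the most abundant member per kilobase of exon, with a median of 287 CPM per kilobase over the 9 control mice. It was followed by Ftl1 at 67.2, Slc40a1 at 38.4 and Tfrc at 30.5 CPM per kilobase, while Lcn2 was lowest at 0.668 CPM per kilobase. Fth1 varied little. It was called only in DSS, with 901, 1211 and 2064 CPM against 879, 915 and 1103 CPM (log2 0.53 ± 0.20, SE, adjusted p = 0.0433), and that call rested on mouse 8, without which the log2 value was 0.13 (adjusted p = 0.610). In TRUC, with 851, 892, 926 and 915 CPM against 1117, 1279 and 1147 CPM, the groups did not overlap and the log2 difference was -0.40 ± 0.18 (adjusted p = 0.0813). In that comparison edgeR on the 2 groups alone and DESeq2 called Fth1 lower (adjusted p = 6.99e-04 and 4.69e-06). With IL-10 blockade Fth1 was at 1111, 1538.5, 1125 and 1288 CPM, above every Balb/C control. The log2 difference there was 0.39 ± 0.19 (adjusted p = 0.0822). In DNBS, TCT and anti-CD40 the groups overlapped, with log2 differences of -0.11, 0.14 and -0.02 (adjusted p = 0.779, 0.640 and 0.966).

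Ftl1 (ENSMUSG00000050708, chr7:45457944-45459884), the chain that promotes mineral formation inside the ferritin shell, rose 1.84-fold with IL-10 blockade, with 114, 171, 141 and 160 CPM against 89.0, 70.7 and 79.5 CPM (log2 0.88 ± 0.16, SE, adjusted p = 1.21e-04). It rose 1.35-fold in TRUC, with 114, 162, 135 and 140 CPM against 95.7, 115 and 95.2 CPM (0.43 ± 0.16, adjusted p = 0.0312), where the groups overlapped and 4 of the 7 fits without a mouse lost the call. In the other 4 models its log2 difference lay between -0.06 and 0.30 with adjusted p of at least 0.218. Ftl1 values are uncertain, since 50.9% of its 50-base windows also occur in other genes, 15 of them and among them Ftl1-ps1 and Ftl2-ps, which had up to 73 counts together. Reads from such windows may have been left out or assigned elsewhere. For Fth1 the share was 1.59%.

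The ratio of Fth1 to Ftl1, each per kilobase, does not depend on the scaling between libraries. It was 2.55 ± 0.313 (SD, n = 4) in TRUC against 4.48 ± 0.187 (SD, n = 3) in the Rag2-/- controls, and 3.36 ± 0.330 (SD, n = 4) with IL-10 blockade against 4.73 ± 0.811 (SD, n = 3) in the Balb/C controls. Neither pair overlapped, and the exact two-sided permutation test gave p = 0.0571 for each, the smallest these numbers of mice allow, or 0.171 adjusted over the 6 models. In DSS the ratio was 6.62 ± 1.96 (SD, n = 3), in DNBS 4.25 ± 0.382 (SD, n = 3), in TCT 4.49 ± 0.189 (SD, n = 3) and with anti-CD40 3.20 ± 0.521 (SD, n = 3). These 4 overlapped their controls, with exact permutation p from 0.200 to 0.400. None of the 6 comparisons could pass 0.05.

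**Figure D3:**
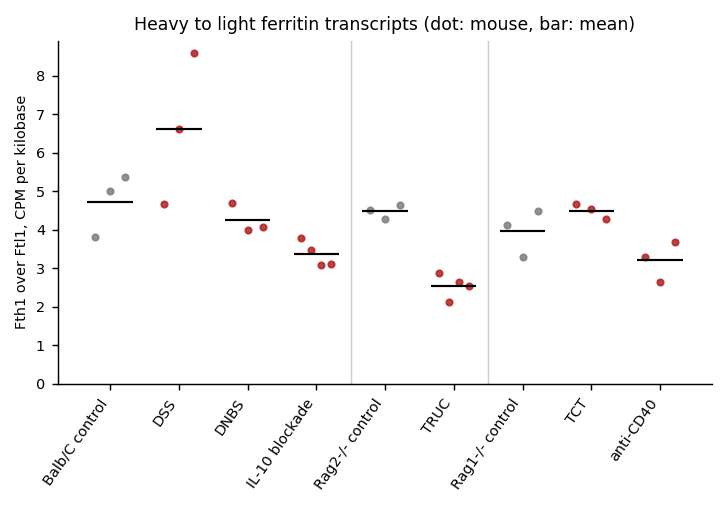
Ratio of Fth1 to Ftl1 transcripts per mouse (vertical axis, from CPM per kilobase of exon) in the 9 groups. Dots are mice, gray for controls and red for colitis, and bars are group means. TRUC mice lie between 2.13 and 2.88, below the Rag2-/- controls at 4.28 to 4.65.

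Hmox1 (ENSMUSG00000005413, chr8:75093621-75100589), the inducible enzyme that opens heme and releases its iron, was 4.05 to 7.06 CPM in the 9 control mice. It rose 10.1-fold in DSS, to 30.1, 39.5 and 119 CPM (log2 3.33 ± 0.40, SE, adjusted p = 3.88e-06), and the log2 value without mouse 8 was 2.48. It rose 5.61-fold in TCT (32.0, 28.0 and 23.7 CPM, adjusted p = 4.36e-05), 5.01-fold in DNBS (29, 48.5 and 16 CPM, adjusted p = 0.00157) and 4.54-fold in TRUC (21.7, 28.0, 26.0 and 20.0 CPM, adjusted p = 9.85e-05). With IL-10 blockade it rose 2.71-fold (18.0, 17.1, 14.1 and 18.3 CPM, adjusted p = 0.00256) and with anti-CD40 2.26-fold (9.86, 15.3 and 8.68 CPM, adjusted p = 0.0371). No mouse with colitis overlapped its controls. The anti-CD40 call was lost in 5 of 6 fits without a mouse, with log2 values of 0.90 to 1.31.

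Whether the 6 contrasts of a gene are equal was asked with 1 F statistic per gene from edgeR, adjusted over all genes, which 60.5% of all genes passed. All 10 members passed, with adjusted p from 1.19e-05 for Cp, 6.21e-05 for Slc11a1 and 6.65e-05 for Tfrc to 0.0183 for Fth1. DSS, DNBS and IL-10 blockade share the Balb/C controls and TCT and anti-CD40 share the libraries labelled Rag1-/- control, so these contrasts are not independent. Of the 10 members, Slc11a2 and Steap4 passed the test of equal controls. Adjusted p for the other 8 ran from 0.211 for Tfrc to 0.843 for Hmox1.

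Iron genes beyond the members were read from a list of 49, of which 43 passed the filter. Of these, 12 were higher and 7 lower in TRUC, 9 and 7 in DSS (4 higher without mouse 8), 4 and 1 in DNBS, 14 and 9 with IL-10 blockade, 6 and 5 in TCT, and 6 and 7 with anti-CD40. As shares of the 43 this was 27.9% and 16.3% in TRUC, 20.9% and 16.3% in DSS, 9.3% and 2.3% in DNBS, 32.6% and 20.9% with IL-10 blockade, 14% and 11.6% in TCT, and 14% and 16.3% with anti-CD40, to be read against the shares of all genes given above. Median log2 changes of the 43 lay between 0.01 and 0.22. The 6 genes that did not pass the filter were Trf, Ftmt, Hephl1, Hamp2, Hjv and Tmprss6.

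**Figure D4:**
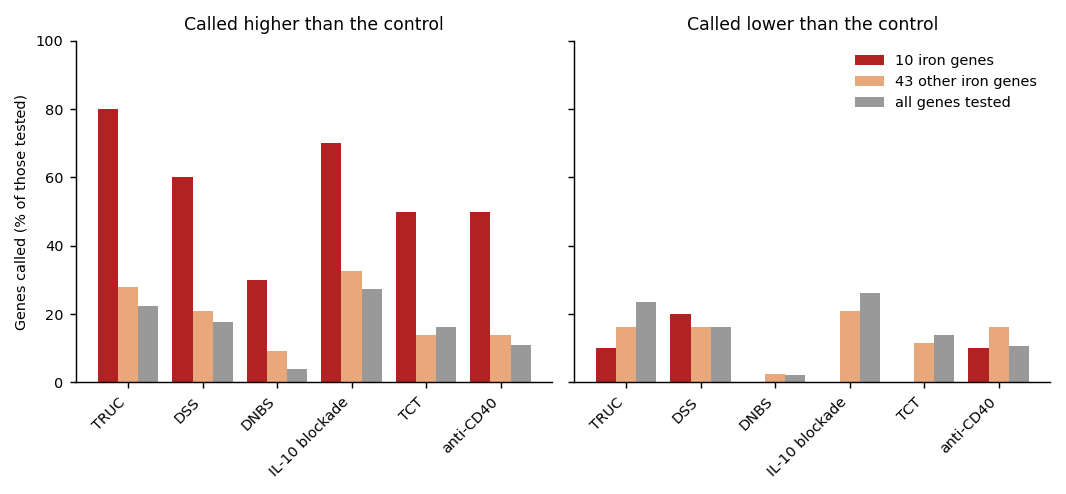
Percent of genes called higher (left) or lower (right) than the control in each model at an adjusted p under 0.05, for the 10 iron genes, for 43 other iron genes and for all 18616 genes tested. In TRUC 27.9% of the 43 other genes were higher beside 22.4% of all genes, and in DNBS 9.3% beside 3.95%.

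Lactoferrin (Ltf), an iron-binding protein of neutrophil granules and secretions, rose in all 6 models. Its mean was 0.585, 1.14 and 0.582 CPM in the Balb/C, Rag2-/- and Rag1-/- controls. It reached 227 CPM in TRUC (log2 7.62), 105 CPM in DSS (7.44), 17.3 CPM in DNBS (4.85), 140 CPM with IL-10 blockade (7.86), 47.7 CPM in TCT (6.32) and 97.5 CPM with anti-CD40 (7.36), with adjusted p of at most 0.0238. The DSS mice had 29.7, 20.9 and 265 CPM, and without mouse 8 the log2 value was 5.39. The TCT mice had 27, 8.04 and 108 CPM, and without mouse 5 it was 4.88. Both calls held, whereas the DNBS call was lost in 4 of 6 fits without a mouse (log2 4.59 to 5.07). The mice with IL-10 blockade spread from 18.5 to 289 CPM. Haptoglobin (Hp), which captures free hemoglobin, rose in 5 models, most in DSS (33.7, 51.3 and 460 CPM against 1.31 to 1.60 CPM, log2 6.97, and 4.88 without mouse 8) and least in TRUC (2.83), and gave 1.36 with anti-CD40 (adjusted p = 0.266). Steap1, a relative of Steap4, rose in every model but TCT, by log2 1.00 to 2.04, and was at 0.15 in TCT (adjusted p = 0.767). Against the Balb/C controls it was higher in TCT too (1.06, adjusted p = 0.0179). The DNBS calls of Hp and Steap1 were each lost in 5 of 6 fits without a mouse, with log2 values down to 1.56 (without mouse 14) and 0.87 (without mouse 16), and the anti-CD40 call of Steap1 in 4 of 6.

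Mcoln1, an endolysosomal channel that releases iron and calcium, was lower in all 6 models, with log2 values from -0.53 in TRUC to -0.75 with IL-10 blockade and adjusted p of at most 0.00809. With the Rag2-/- controls the anti-CD40 value was -0.34 and missed the threshold (adjusted p = 0.0676). Its 20 mice with colitis lay between 29 and 43.1 CPM and its 9 controls between 42.4 and 62.3 CPM. Pcbp2, a chaperone that delivers iron, was lower in 5 models (-0.41 to -0.66) and at -0.26 in DNBS (adjusted p = 0.0928). Steap3, the endosomal reductase of the transferrin cycle, fell in TRUC (-0.85), DSS (-1.13), IL-10 blockade (-0.64) and TCT (-0.64), where the call was lost against the Balb/C controls (-0.38, adjusted p = 0.145). Genes of 1 family thus differed in direction, since Steap4 and Steap1 were called higher and Steap3 lower in TRUC, DSS and IL-10 blockade.

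Of the 4 genes fixed for siderophore and luminal iron binding, the receptor Slc22a17 fell in TRUC (-1.20) and with IL-10 blockade (-1.25). Cd163, the macrophage receptor for haptoglobin and hemoglobin, rose in DSS (log2 1.37) and TCT (1.57) and fell with IL-10 blockade (-2.99, adjusted p = 8.37e-06). Against the Balb/C controls the TCT difference was -1.01 (adjusted p = 0.0761), so its direction rests on the control group. Cd163 was 8.56, 11.6 and 12.4 CPM in TCT and 8.68, 9.18 and 12.8 CPM in the Rag2-/- controls, a difference that was not tested. Hpx, hemopexin, fell in TCT (-4.66) and with anti-CD40 (-4.36), where the libraries labelled Rag1-/- control had 2.48 CPM and the models 0.0903 and 0.118 CPM. Against a floor of 3 counts these model levels cannot be told from 0. The Balb/C controls had at most 1 Hpx count, and against them TCT gave 1.5 (adjusted p = 0.545). The TCT difference thus rests on which of these 2 control groups is used. Hpx in the Rag2-/- controls was 3.28, 2.14 and 2.34 CPM, near the libraries labelled Rag1-/- control. Against the Rag2-/- controls anti-CD40 gave -4.41 (adjusted p = 0.00140), while TCT was not compared with them. Hamp, hepcidin, rose in DSS (3.28, adjusted p = 0.00686) from 0.184 to 1.82 CPM. Its control mice had 1 to 5 counts, at or near that floor, and without mouse 8 the call was lost (2.51, adjusted p = 0.0611). Among regulators of hepcidin, Id1 rose in TRUC (1.06), IL-10 blockade (1.5) and anti-CD40 (0.99), and Smad6 fell in TRUC (-0.85), DSS (-0.74) and anti-CD40 (-0.75). The DSS and the anti-CD40 call of Smad6 were each lost in 4 of 6 fits without a mouse, and against the Rag2-/- controls the anti-CD40 calls of Smad6 (-0.49), Id1 (0.62) and Slc39a14 (-0.37) were lost. Ncoa4, which sends ferritin to the lysosome, fell in TRUC (-0.42) and with IL-10 blockade (-0.87), and the metal transporter Slc39a14 fell with anti-CD40 (-0.92).

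**Figure D5:**
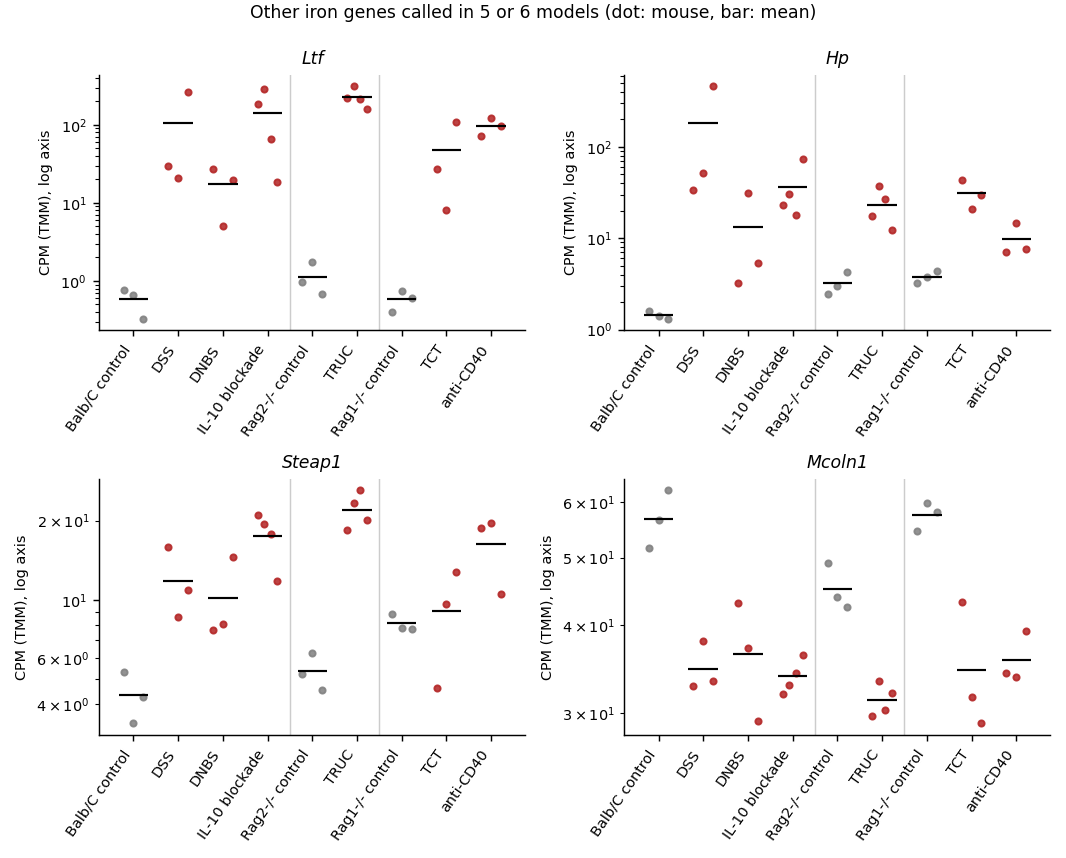
Level of Ltf, Hp, Steap1 and Mcoln1 in CPM after TMM scaling (vertical log axes, which differ in range) in every mouse of the 9 groups. Dots are mice, gray for controls and red for colitis, and bars are group means. Ltf is below 2 CPM in every control mouse and between 5.12 and 313 CPM in colitis, and Mcoln1 is at most 43.1 CPM in colitis.

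Markers of infiltrating cells were also called in these models, and their part in the results of the members was not tested. The counts of markers called are to be read against the shares of all genes given above. Of 8 neutrophil markers tested, 6 were higher in TRUC, 7 in DSS, 5 in DNBS, 7 with IL-10 blockade, 5 in TCT and 5 with anti-CD40, and none was lower. The summed level ran from 131 to 339 CPM over the controls, of which Ly6g made up most with 130 to 337 CPM, and from 174 CPM in DNBS to 2511 CPM in DSS. S100a8 was at most 0.383 CPM in every control mouse. Its mean was 436 CPM in TRUC, 231 CPM in DSS (67.7, 122 and 504 CPM, the last in mouse 8), 18.7 CPM in DNBS, 118 CPM with IL-10 blockade, 64.2 CPM in TCT and 56.8 CPM with anti-CD40. Cxcr2 was at 0 in every control and at a mean of 1.07 CPM with anti-CD40 to 31.2 CPM in DSS, where mouse 8 had 74.6 CPM.

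Of 9 macrophage markers tested, 8 were higher in TRUC, 8 in DSS, 1 in DNBS, 4 with IL-10 blockade (2 lower), 9 in TCT and 3 with anti-CD40. Summed with Cd163 they ran from 1469 to 2462 CPM in TCT and 1260 to 2419 CPM in DSS against 340 to 399 CPM and 484 to 574 CPM in their controls. The sums were 797 to 940 CPM in TRUC against 324 to 474 CPM, 981 to 1469 CPM with IL-10 blockade, 680 to 840 CPM in DNBS and 577 to 855 CPM with anti-CD40. Among the mice with IL-10 blockade, mouse 3 had the highest sum, 1469 CPM, and the highest Slc11a1. Markers of erythroid cells, which are rich in heme, summed to 46.5 to 137 CPM in DSS, 24.0 to 28.3 CPM in its controls, 7.34 to 28.2 CPM in DNBS, and 0.429 to 12.3 CPM with anti-CD40. Of 6 erythroid markers 3 were higher in DSS and 3 lower with anti-CD40, and 0 were higher and 1 lower in each of the other 4 models. Epithelial markers summed to 7612 to 10399 CPM in DSS, against 9846 to 11750 CPM in its controls, and to 12221 to 12983 CPM in TRUC, against 12449 to 13543 CPM. With IL-10 blockade, where Tfrc and Ftl1 rose most, they summed to 12566 to 22905 CPM, above every Balb/C control, with 5 of 11 markers higher and 2 lower, and 5 of 6 smooth muscle markers were lower. All 6 T cell markers were higher with IL-10 blockade (77.6 to 140 CPM in sum against 12.8 to 23.2 CPM) and in TCT (121 to 210 CPM against 5.51 to 7.44 CPM), as were 5 in DSS and 4 in TRUC, where the sum was 10.6 to 13.5 CPM against 4.29 to 7.63 CPM. Of 4 liver markers tested, which bear on Cp, 0 were higher and 2 lower in TRUC, with sums of 10.6 to 27 CPM against 89.8 to 98.6 CPM in its controls, and 0 were higher and 2 lower in TCT. With IL-10 blockade 1 was higher and 1 lower, with sums of 14.5 to 41.1 CPM against 75.5 to 80.6 CPM in its controls. In DSS 0 were higher and 1 lower, in DNBS 0 and 0, and with anti-CD40 0 and 3.

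The genes most like a member across the 9 group means were ranked by the root mean square difference of centered log2 CPM. For Lcn2 these were the chemokine Ccl8 (0.58), Il1f9 (0.61), a cytokine of the IL-36 group, and Duoxa2 (0.62), the maturation factor of an epithelial oxidase, where the median over 18615 genes was 2.18. Steap4 was closest to Gbp11 (0.32), Clca3b (0.45) and Cwh43 (0.54), with a median of 1.80. Slc11a1 was closest to the leukocyte signaling genes Fgr (0.19), Lcp2 (0.20) and Hcls1 (0.20), with a median of 1.36. Slc40a1 was closest to Erbb3 (0.22), Sphk2 (0.22) and Erbb2 (0.24), with a median of 0.69, and Slc11a2 to Gm42928 (0.14), BC016579 (0.15) and Zfp58 (0.15), with a median of 0.50. A gene that varies little is close to many others, which makes the small distances for Slc40a1 and Slc11a2 less particular than the one for Lcn2.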

How the data were processed

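Colon RNA of 29 mice in 9 groups had been sequenced from poly(A)-selected libraries. What the authors deposited is a table of raw counts, whole numbers without normalization. The submitters' processing notes name Trimmomatic, HISAT2, HTSeq and GRCm38, with no order or settings, and the paper describes its steps for human colonoids only. Reads that fit several genes or a gene on the other strand may have been dropped or misassigned, as stated at Ftl1 and Cp. The 92 spike-in rows held 0 counts in every library and stayed out.

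The tests were run in edgeR 4.0.16 (R 4.3.3). After a filter at a mean count of 3, 18616 of 54532 genes remained. TMM factors set the library sizes, and the quasi-likelihood fit took the 9 groups together without covariates. P values of each contrast were adjusted by Benjamini-Hochberg across these genes, and a standard error is the absolute log2 change over the root of its F statistic. Scripts were tested on simulated counts. DESeq2 1.42.0 and edgeR on 2 groups alone, RLE size factors, other filters, a replicate block, other control groups and each mouse left out were alternatives. No pair of the 33 pairs of libraries of a group was identical, and chi-square per degree of freedom was at least 3.42.

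The members and lists were chosen with earlier results of these data known. All 10 members are described in every comparison. Of the wider list, the 3 largest rises and falls per model past the threshold and genes called the same way in 5 or more models are named. For 5 members the 3 genes most alike are named. Markers are named where they stand beside a result. Symbols come from a table of Ensembl gene names, positions from GENCODE M21, promoters and older symbols from RefSeq. Exact permutation tests used scipy 1.17.1.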

Additional observations from a re-analysis of the deposited data

Results flagged for a closer look

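The 10 genes were examined in the 2 groups of 4 mice, 20 sets of values from the same 8 mice, and 2 sets had a mouse far from the others. Chance marks about 1 in 20 sets. With IL-10 blockade, mouse 3 stood above the others in Slc11a1, with a gap to the nearest mouse of 0.9116 of the range of the group, and mouse 4 stood above the others in Slc40a1 with a gap of 0.9104 of the range, where 0.829 is the critical value for 4 mice.

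All 10 genes differed between the 6 models in the test that their contrasts are equal, as did 60.5% of all genes. The adjusted p was 1.19e-05 for Cp, 6.21e-05 for Slc11a1, 6.65e-05 for Tfrc, 0.000223 for Ftl1, 0.000357 for Hmox1, 0.000678 for Slc11a2, 0.00116 for Steap4, 0.00622 for Lcn2, 0.011 for Slc40a1 and 0.0183 for Fth1 (edgeR).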

How the results depend on the processing

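Of the 10 genes, DSS had 1 called lower with RLE size factors, without the filter, with filterByExpr and with DESeq2, and 0 with the 2 groups alone. TCT had 1 lower without the filter, with the 2 groups alone, with DESeq2 and against the Balb/C controls, and anti-CD40 had 0 lower without the filter and against the Rag2-/- controls. TRUC had 2 lower with the 2 groups alone and with DESeq2. DNBS had 5 higher and 1 lower with DESeq2. Of the 43 other iron genes, 11 were lower in TRUC with the 2 groups alone and with DESeq2, 4 in DSS with the 2 groups alone, 2 in TCT against the Balb/C controls, and in DNBS 2 were higher and 0 lower with the 2 groups alone and 2 lower with DESeq2. Genes called in DNBS numbered 1148, against 624 with the 2 groups alone and 1877 with DESeq2.

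The replicate numbers did not pair the mice, since correlations of same-numbered mice lay between -0.052 and 0.056. With the number as a replicate block, 6919 genes were called in TRUC against 8524, with 6 members higher and 2 lower, and 7552 against 9916 with IL-10 blockade.

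With each mouse left out in turn, genes called ran from 198 (without Balb/C control 1) to 2342 (without DNBS mouse 11) in DNBS, from 3835 (without mouse 8) to 6286 in DSS and from 1749 (without anti-CD40 mouse 7) to 4747 with anti-CD40. Members called lower ran from 0 to 1 in DSS, TCT, TRUC, anti-CD40 and IL-10 blockade, and members higher from 3 to 5 with anti-CD40. Of the other iron genes, 0 to 6 were higher in DNBS, 4 to 12 in DSS (4 without mouse 8) and 2 to 9 with anti-CD40 (2 without mouse 7), and 3 to 5 were lower in TCT.

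Log2 values changed sign for Ftl1 in DSS (0.022 with RLE, 0.026 without the filter, 0.040 with filterByExpr), Fth1 with anti-CD40 (0.016 without the filter, 0.0048 with DESeq2), Slc11a2, Ftl1, Cd163 and Hpx in TCT against the Balb/C controls (-0.31, 0.16, -1.01 and 1.5), and Slc11a2 and Slc40a1 with anti-CD40 against the Rag2-/- controls (0.21 and -0.084). With a mouse left out they ran through 0 for Ftl1 in DSS (-0.13 to 0.082), DNBS (-0.081 to 0.15) and TCT (-0.24 to 0.052), Steap1 in TCT (-0.18 to 0.46), Tfrc in DSS (-0.17 to 0.32) and TCT (-0.061 to 0.36), and Fth1 in TCT (-0.071 to 0.25) and with anti-CD40 (-0.076 to 0.020). Of these Slc11a2 with anti-CD40 and Cd163 and Hpx in TCT were called against their own controls. The cause was not tested.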
